A study of Schizosaccharomyces pombe with 4 samples.

Results

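Moderate Rif1 signal away from Taz1 was examined along the chromosomes of the fission yeast Schizosaccharomyces pombe. The tiles were chosen by their own values: a tile had to lie from 2-fold to below 3-fold on the Rif1 array and below 1.5-fold on the array of GFP-tagged Taz1, outside the chromosome ends, the centromeres and other set-aside intervals, with no m at the end of its probe name. This rule took 421 tiles, 1.08% of the 38920 tiles within the same position and name limits and part of 41251 chromosome tiles on the array. Chromosome I held 228 of them (1.297% of its 17573 tiles within the limits), chromosome II held 160 (1.15% of 13919) and chromosome III held 33 (0.444% of 7428). Because the rule used the Rif1_Myc and Taz1_GFP values, both are given as a description. At or above 2-fold on Rif1_Myc stood 1.69% of the tiles within the limits, and at or above 1.5-fold on Taz1_GFP 2.93%.

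Binding was mapped by chromatin immunoprecipitation and hybridisation to a tiling microarray (ChIP-chip) whose 60-base probes stand 300 bp apart. There were 4 arrays, 1 for each group, all of cells growing exponentially in rich medium. Rif1_Myc was DNA precipitated with a Myc antibody from cells with Myc-tagged Rif1. Taz1_L593F was DNA precipitated with an antibody raised against Taz1 from cells that carry the L593F allele of taz1, called mut5 in the labels. Taz1_GFP was DNA precipitated with a GFP antibody from cells with GFP-tagged Taz1, and Taz1_wt was DNA precipitated with the Taz1 antibody from wild-type cells. Each value below compares precipitated (IP) DNA with DNA of the whole-cell extract (WCE) as a log2 ratio, set to a median of 0 on each array and passed through a running median of 3 tiles. With 1 array in a group there is no replicate error and no test, so that precision is limited by how few arrays there are. An SD given below is the spread over the tiles of 1 region on 1 array.

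Taz1 is the fission yeast protein that binds double-stranded telomere repeats, and it recruits Rif1 to chromosome ends. Rif1 also binds at sites inside the arms, where it delays the firing of nearby replication origins by recruiting a protein phosphatase. Many of its known arm sites hold a G-rich sequence with the core GTGGGGG, which can form a stack of guanine quartets.

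To tell flanks from peaks, neighbouring tiles at or above 2-fold were joined into runs across gaps of up to 1 kb. A run with a tile at or above 3-fold was taken as a strong run, and the members in it as its flanks. A run with no such tile was taken as a peak of its own. Of the 421 members, 252 tiles (59.9%) made up 83 peaks of their own and 169 tiles (40.1%) flanked 30 strong runs. A further 6 strong runs held no member. Runs were built over all chromosome tiles, those outside the limits included, so these 6 need not lie within the limits. The own peaks are runs and not members alone: 18 of the 83 also held tiles that the rule left out, and 10 summits were such tiles, 7 for the m suffix and 3 for the Taz1_GFP limit. Between fin1 and pas1, for example, 1 of 5 tiles was a member and Taz1_GFP averaged 0.88 ± 0.37 over the run, above the limit of the rule.

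The sequences that bear on this division are the matches to GTGGGGG, searched on both strands in the 900 bases around each summit, the tile with the highest value of a run. Of the 83 own peaks 7 had one (8.43%), against 23 of the 30 strong runs (76.7%) and 1.66% of all tile windows. The own share moved with the processing, to 11 of 187 own summits with no running median and 7 of 30 with loess. It was 5 of 25 with a fit on WCE signal removed, 11 of 56 with a running median of 5 and 13 of 22 with arrays scaled to a common spread, where the 3-fold limit divides the runs anew. All 7 are shown, as the match nearest to the summit with 11 bases on either side. They were read from assembly ASM294v3 in the direction of the motif, which stands in capitals. No source used here names the build of the array's own positions, so the link between tile and sequence rests on a registration of the array on that assembly by base composition.
mug115, its untranslated exon, chrI:1149023-1149051, minus strand: tataggaccaaGTGGGGGttgttatcgtt
SPAC1399.02, coding exon, chrI:1847299-1847327, minus strand: gggcatcggcgGTGGGGGtattatgtctt
SPAC6C3.03C beside mix17, coding exon, chrI:2326501-2326529, minus strand: aatgagacaaaGTGGGGGtggaatattag
rog1, coding exon, chrI:2564544-2564572, minus strand: tgaggttcacaGTGGGGGgcacagttgta
fbp1 to wwm3, non-coding RNA gene, chrII:201479-201507, minus strand: actggatggatGTGGGGGttcggggaatc
pst1, coding exon, chrII:2452514-2452542, minus strand: ctggggttgtgGTGGGGGaggaagctgcg
pob1 to vma10, intergenic, chrII:4391293-4391321, plus strand: agacgaccttcGTGGGGGctttgcttttt

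For comparison, these are the nearest matches at the summits of the flanked strong runs with the 3 most member tiles and at the highest summit of all.
SPAC23H4.05C, its untranslated exon, chrI:1600192-1600220, minus strand: agctaaaccaaGTGGGGGagtgtgcgatt
ste7 to SPRRNA.11, non-coding RNA gene, chrI:455685-455713, minus strand: tgagaccctatGTGGGGGgaaatttatcc
stb3 to SPBC1652.02, non-coding RNA gene, chrII:4255767-4255795, minus strand: tttgggtctaaGTGGGGGatgtgggatag
pvg5 to SPAC22F8.03C, non-coding RNA gene, chrI:4787978-4788006, plus strand: aaaagccctatGTGGGGGatgggatttac

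The extended Rif1 binding-site consensus, in which a C, any base and a pair of A or T bases stand before the core, was looked up after the values were seen. The nearest match fitted it in 2 of the 7 own peaks (mug115 and SPAC6C3.03C) and in 16 of the 23 strong runs. At the own peaks, 4 of the 7 nearest matches lay in a coding exon, against 0 of 23 at the strong runs. The window held 2 or more matches at 2 of the 7 own peaks and at 15 of the 23 strong runs.

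The flanks were, by definition, the skirts of strong runs, and these runs were broad. The 30 strong runs had a median of 10 tiles (range 4 to 30) and a median summit of 2.21, with the highest at 3.11. Of the 169 flank tiles, 54 stood right beside a tile at or above 3-fold, 35 stood 2 tiles away, 27 stood 3 tiles away, 19 stood 4 and 11 stood 5 tiles away, and 23 lay farther, up to 3300 bp. Their Rif1_Myc values had a median of 1.31 (quartiles 1.14 and 1.44). In 167 of the 169 the signal did not dip by 0.3 or more on the way to the nearest strong tile. The other 2 tiles lay in 1 run, at SPAC23H4.05C on chromosome I, where both had 1.36 with a low point of 1.06 between them and the strong tiles 1500 and 1800 bp away. A flank tile lies below 3-fold in a run of tiles at or above 2-fold, joined across gaps of up to 1 kb. That definition left little room for a dip of 0.3, so the count without one is largely set by it.

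The own peaks were narrower and lower. Their lower summits follow from the 3-fold limit that divides the runs, and a width counted at or above 2-fold also depends on height. They had a median of 3 tiles (900 bp) and a median summit of 1.11, and 39 of the 83 had a summit below 1.1. Peaks of 1 or 2 tiles numbered 31, those of 3 to 5 tiles 41 and those of 6 or more tiles 11, with up to 12 tiles. Their tiles had a Rif1_Myc median of 1.09 (quartiles 1.04 and 1.21). The distance from the nearest tile at or above 3-fold had a median of 90300 bp, and 64 own peaks were more than 20000 bp away from it.

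**Figure D1:**
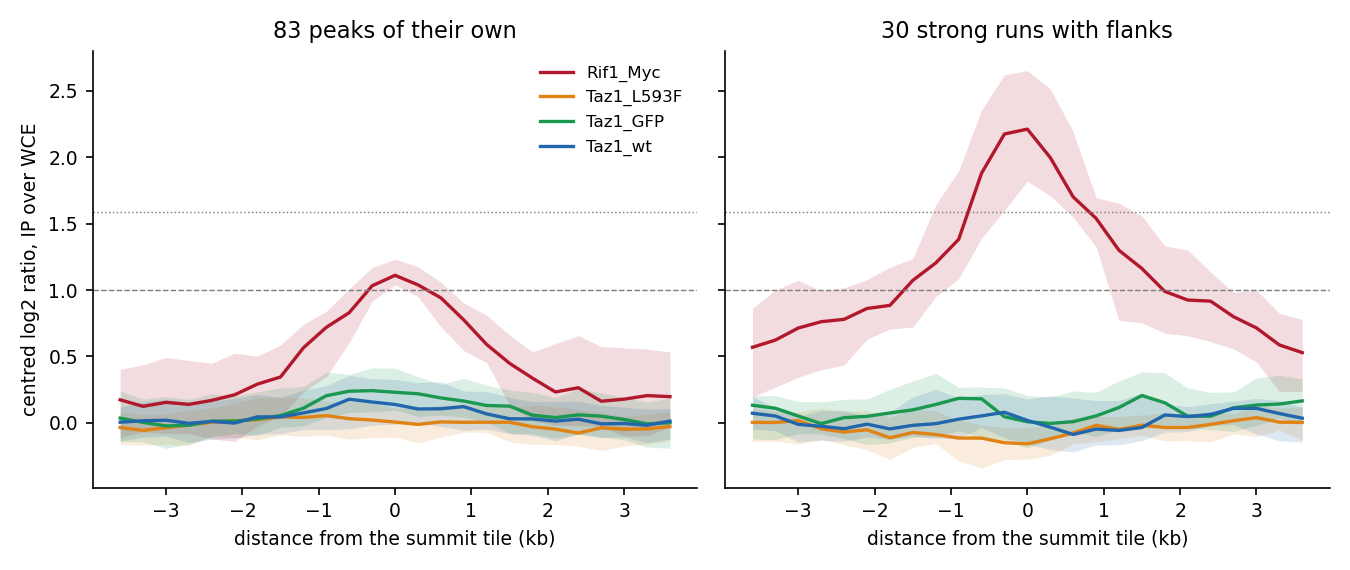
Median centred log2 ratio (lines) and quartiles (shading) against distance from the summit tile in kb, on the 4 arrays, for the 83 peaks of their own (left) and the 30 strong runs with flanks (right); the dashed line marks 2-fold and the dotted line 3-fold. The Rif1_Myc median at the summit is 1.11 for the own peaks and 2.21 for the strong runs, and at 1.5 kb to the right of it 0.45 and 1.16. The 3-fold limit sets the own summits below the strong ones by definition.

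Some own peaks stood close to a strong run. There were 9 (26 member tiles) within 3 kb of a tile at or above 3-fold, the nearest at 1500 bp, and in these the signal fell to between 0.47 and 0.93 on the way. They include the peak over klp9 and ubc1, a mitotic kinesin and a ubiquitin-conjugating enzyme, 2400 bp from the strong run between ubc1 and gsf1, with 5 tiles at 1.19 ± 0.15 on Rif1_Myc. Another is the peak over sur2, an enzyme of sphingolipid synthesis, 1800 bp from the strong run at SPBC887.16, with 4 tiles at 1.34 ± 0.08. A peak of 2 tiles between cyc3 and ste11, the regulator of sexual development, lay 1500 bp from the strong run in the same interval. Its summit was 1.01 and the low point 0.93. At gsk3, 1800 bp from a strong tile, the summit was 1.02 and the low point 0.84. Own peaks were not held to the dip of 0.3 used for flanks. The low point was less than 0.3 below the summit between cyc3 and ste11 and at gsk3, and more than 0.3 below it at the others of the 9. Where the dip is less than 0.3, a shoulder of a strong run cannot be told from a peak of its own. For 71 of the 83 own peaks the signal fell below 0 before the nearest strong tile.

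At the edges of the rule, the lowest member had a Rif1_Myc value of 1.00005 and the highest tile left out below it 0.999696. There were 100 members within 0.05 above the lower limit and 88 tiles within 0.05 below it. The highest member had 1.58011 and the lowest tile left out above it 1.58566, with 23 members and 17 tiles within 0.05 of that limit. The Taz1_GFP limit left out 50 tiles, and the m suffix left out 60. On the negative side, 38 tiles within the limits lay between 2-fold and 3-fold below the array median and 0 lay lower.

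The rule did not use Taz1_wt and Taz1_L593F, and members at or above 1.5-fold there are set beside the share of all tiles. The share of all tiles includes the 1139 tiles at or above 1.5-fold on Taz1_GFP, which the rule kept out of the members. Taz1_GFP maps the same protein, so low member shares on the other Taz1 arrays are in part set by the rule. Of 251 own peak tiles with a Taz1_wt value, 6 (2.39%, exact 95% interval 0.882 to 5.13%) were at or above 1.5-fold, and of 168 flank tiles 0 were. With normexp background correction the share of own peak tiles was 15.8%, and with no running median 5.85%. The share of all tiles was not computed under these settings, so neither value can be set beside the shares of all tiles below. Among all tiles within the limits 1.16% were at or above 1.5-fold on Taz1_wt, within the interval of the own peak tiles, and 0.232% at or above 2-fold, where own peak tiles and flank tiles had 0. On Taz1_L593F, 0 of 252 own peak tiles and 0 of 169 flank tiles reached 1.5-fold, beside 0.0206% of all tiles. Beside shares as small as 0.232% and 0.0206%, counts of 0 in sets of this size say little. Intervals here cover counting error only, and tiles of 1 region share fragments. The median Taz1_wt value was 0.09 for own peak tiles, 0.04 for flank tiles and -0.01 for all tiles. The Taz1_L593F medians were 0.00, -0.06 and 0.00 for the same sets. The Taz1_GFP medians, bounded by the rule, were 0.17, 0.14 and -0.01.

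Own peak tiles were brighter in whole-cell extract than other tiles, on every array. The centred log2 WCE signal of own peak tiles had a median of 0.72 on Rif1_Myc, 0.76 on Taz1_L593F, 1.08 on Taz1_GFP and 0.58 on Taz1_wt. Flank tiles had -0.05, 0.00, 0.34 and 0.03 in the same order. All tiles within the limits had medians between -0.01 and 0.00. The precipitated Rif1_Myc channel had a median of 1.83 for own peak tiles and 1.21 for flank tiles on the same centred scale, so both channels were high at own peaks, while at flanks the extract stayed near the array median.

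**Figure D2:**
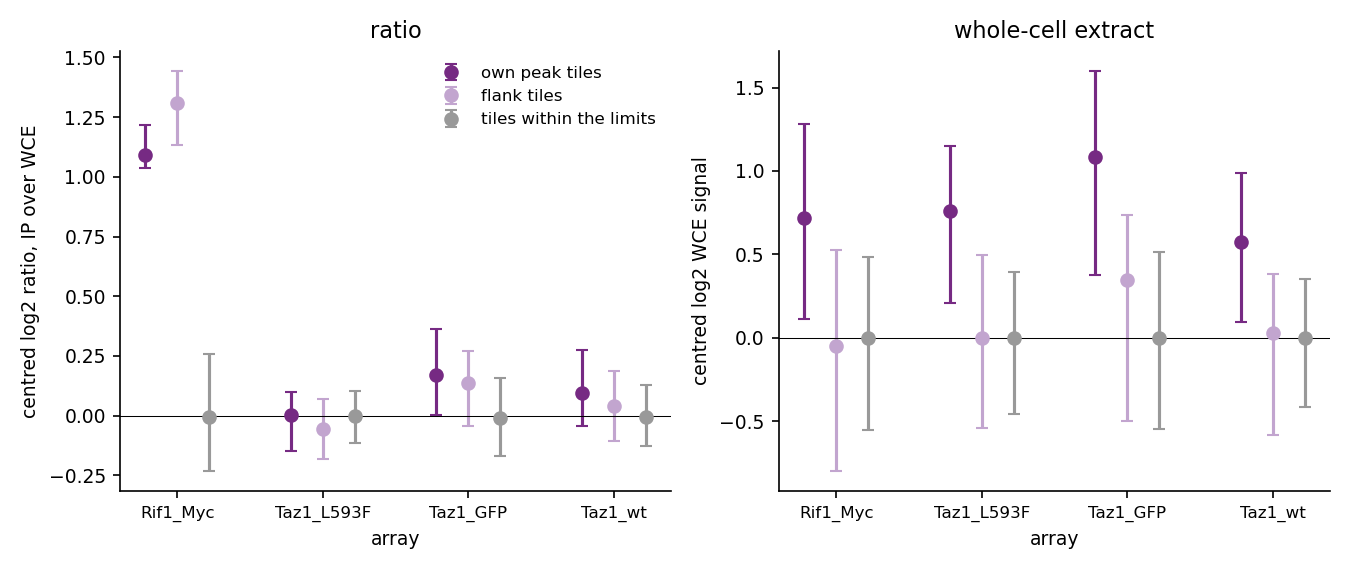
Median and quartiles of the centred log2 ratio (left) and of the centred log2 WCE signal (right) on each array, for 252 own peak tiles, 169 flank tiles and all 38920 tiles within the limits. The 2 kinds of member differ little in ratio on the Taz1 arrays, whereas the WCE medians of own peak tiles (0.58 to 1.08) lie above those of flank tiles (-0.05 to 0.34) on all 4.

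Brightness and base composition differed together between the kinds. Averaged over the 3 Taz1 arrays, the WCE signal was at or above 1 at 100 of 252 own peak tiles (39.7%) and 10 of 169 flank tiles (5.92%), against 3.90% of all tiles within the limits. Of the 1503 tiles with a WCE signal from 1 to 2, 94 (6.25%) were own peak tiles, while of the 15869 tiles from -1 to 0 only 37 (0.233%) were. Flank tiles made up 0.665% and 0.353% of the same bins. The GC content had a median of 41.0% at own peak tiles, 37.3% at flank tiles and 36.3% at all tiles. Across the 38914 tiles with a value, which share probes and neighbours, the Rif1_Myc ratio had a Pearson r of 0.44 with the WCE signal of the Taz1 arrays and 0.29 with GC content. For the 3 Taz1 ratios the same r lay between -0.10 and 0.01 with WCE signal and between -0.20 and -0.13 with GC content. The r values with WCE signal are not like for like. That signal is part of the denominator of the Taz1 ratios, which lowers their r, and not of the Rif1_Myc ratio. The part of WCE brightness in the own peaks was not tested.

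By region, the mean WCE signal of the 83 own peaks had a median of 0.91, with 61 of them above the highest of the 30 strong runs, 0.38. The strong runs had a median of -0.12. In WCE signal, the 7 own peaks with GTGGGGG lay closer to the strong runs, with a median of -0.04 (range -1.38 to 1.25), beside 0.93 for the 76 without it.

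**Figure D3:**
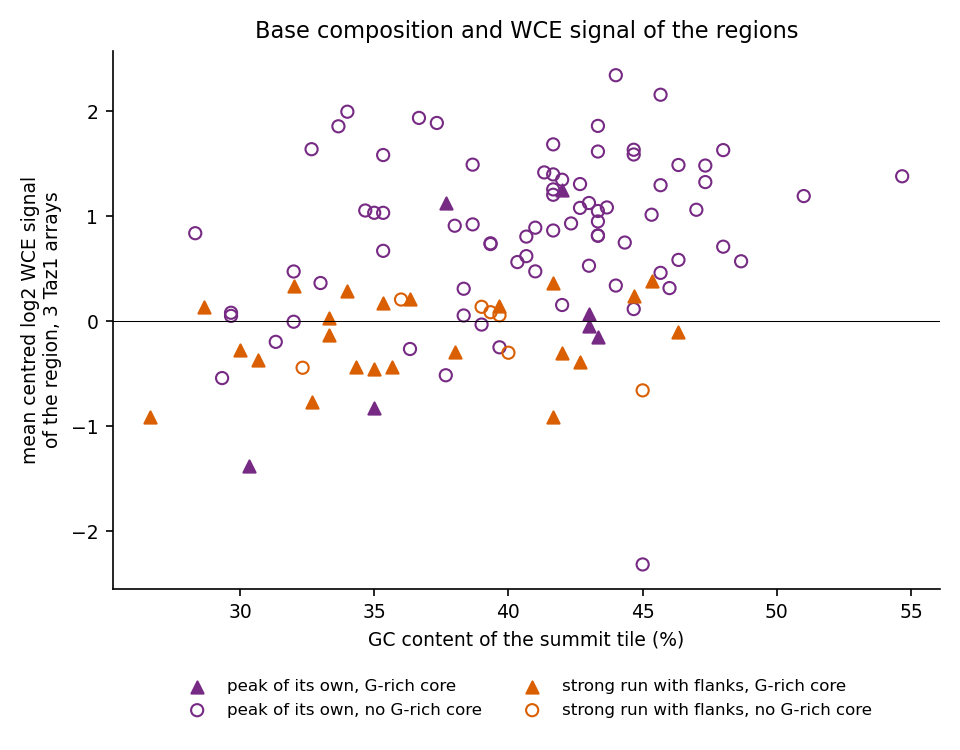
Mean centred log2 WCE signal of each region on the 3 Taz1 arrays (vertical) against the GC content of its summit tile in percent (horizontal), for 83 peaks of their own (purple) and 30 strong runs with flanks (orange); filled triangles have the G-rich core within 900 bases and open circles do not. The strong runs lie between -0.91 and 0.38 in WCE signal and 61 own peaks lie above them; the lowest point is ura4.

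Own peak summits lay mostly in coding exons. The summit tile's middle fell in a coding exon at 62 of 83 own peaks (74.7%, exact 95% interval 64.0 to 83.6%). Among the 73 own summits that were members themselves, 54 lay in a coding exon and 7 had GTGGGGG in their window. A coding exon also held 5 of 30 strong summits (16.7%), 84 of 169 flank tiles (49.7%) and 58.7% of all tiles within the limits. Of the 70 own summits inside a protein-coding gene, 40 lay in the middle of 3 equal parts of the gene, 16 in the part before it and 14 in the part after it. Their host genes had a median length of 2626.5 bp, against 1791 bp for 4917 protein-coding genes with tiles; a longer gene holds more tiles. Other processing lowered the share of own summits in a coding exon, to 30.0% with loess, 42.0% with a fit on GC content removed, 32.0% with a fit on WCE signal removed and 27.3% with arrays scaled to a common spread.

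Motifs were also counted over all tiles of each kind. GTGGGGG was in the window of 30 of 252 own peak tiles (11.9%), 10 of 169 flank tiles (5.92%) and 1.66% of all tiles within the limits. In windows of 300 bases it was in 3.97% of own peak tiles, 2.96% of flank tiles and 0.560% of all tiles. With 900 bases it was in 7 of 83 own summit windows (8.43%) and 23 of 30 strong ones (76.7%). Runs of 5 guanines, GGGGG, which GTGGGGG contains, were in 39.3% of own peak windows, 35.5% of flank windows and 21.1% of all windows. The telomere repeat core GGTTACA, which Taz1 binds in tandem, was in 12.3%, 6.51% and 7.05% of the same sets. A run of 10 adenines was in 11.9%, 27.2% and 12.6%. A match is a description of the letters and not a binding site.

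The own peak with the most tiles covered pop4, a subunit of the RNase P and RNase MRP ribonucleases, on chromosome II (2916600 to 2920199 on the array). All 12 of its tiles were members, from 1.09 to 1.51 on Rif1_Myc. Its mean was 1.24 ± 0.13 on Rif1_Myc, -0.05 ± 0.21 on Taz1_L593F, 0.05 ± 0.13 on Taz1_GFP and -0.10 ± 0.19 on Taz1_wt (SD over 12 tiles). The rule sets the gap between Rif1_Myc and Taz1_GFP. The 2 arrays it did not use had values around 0 that overlapped those of Taz1_GFP. Its mean WCE signal on the Taz1 arrays was 0.36, within the range of the strong runs.

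The interval between pob1, a cell-polarity protein, and vma10, a subunit of the vacuolar proton pump, held the highest own summit, 1.54, over 9 tiles on chromosome II (4391700 to 4394399). Rif1_Myc averaged 1.29 ± 0.24 there, with 0.03 ± 0.10 on Taz1_L593F, -0.13 ± 0.15 on Taz1_GFP and 0.20 ± 0.16 on Taz1_wt. Its WCE signal was -0.04, and it holds the match shown above. The interval between SPAC23C11.06C, annotated as a hydrolase, and SPAC23C11.07 had a summit of the same height, 1.54, over 6 tiles on chromosome I (2145300 to 2147099). Rif1_Myc averaged 1.43 ± 0.11, with -0.26 ± 0.16 on Taz1_L593F, -0.04 ± 0.11 on Taz1_GFP and -0.29 ± 0.06 on Taz1_wt, and the WCE signal was 0.05. A separate peak of 5 tiles lay over SPAC23C11.06C itself, with a summit of 1.07.

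mug115, a gene named for its rise in meiosis, had 7 tiles on chromosome I (1149600 to 1151699) and a summit of 1.21. Rif1_Myc averaged 1.13 ± 0.10, with -0.39 ± 0.17 on Taz1_L593F, -0.12 ± 0.18 on Taz1_GFP and -0.12 ± 0.30 on Taz1_wt. It was among the 5 own peaks of 3 or more tiles with the lowest Taz1_wt mean. Among the other own peaks with GTGGGGG, rog1, a lipase gene, had 4 tiles at 1.03 ± 0.01, mix17 to SPAC6C3.03C had 3 tiles at 1.08 ± 0.10, pst1 had a mean of 1.12 ± 0.07 and SPAC1399.02, annotated as a transporter, had 1 tile at 1.08. The interval between ptr2, a peptide transporter, and ptk1, a pantothenate kinase, had 5 tiles with a Rif1_Myc mean of 1.43 ± 0.02 and a summit of 1.45. pyp3, a tyrosine phosphatase that acts on the mitotic kinase Cdc2, had 4 tiles at 1.37 ± 0.03, with the other arrays between -0.01 and 0.07. The interval between fbp1, a gluconeogenic enzyme, and wwm3 had 3 tiles at 1.34 ± 0.08 and the low WCE signal of -0.83.

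Other own peaks lay over coding sequences of housekeeping and regulatory genes. eft201, translation elongation factor 2, had 6 tiles on chromosome I (2909100 to 2910899) with a Rif1_Myc mean of 1.11 ± 0.07 and a WCE signal of 1.483. It also had a Taz1_wt mean of 0.58 ± 0.10, beside -0.06 ± 0.12 on Taz1_L593F and 0.02 ± 0.07 on Taz1_GFP. The arrays therefore did not order alike at this gene: Taz1_wt was near 1.5-fold and the other Taz1 arrays were at the array median. This order was not particular to eft201. Over a list of 9 translation factor genes that includes it, the median of gene means was 0.49 on Taz1_wt, -0.07 on Taz1_L593F and -0.06 on Taz1_GFP, with 0.70 on Rif1_Myc. cit1, citrate synthase, had 5 tiles at 1.13 ± 0.07, ppk9, a protein kinase, 5 tiles at 1.13 ± 0.07, and clg1, a cyclin, 5 tiles at 1.05 ± 0.03. None of these 4 kept a tile at 2-fold with loess or with a fit on WCE signal removed: the highest tile was 0.40 and 0.52 at eft201, and between 0.43 and 0.95 at the others. With a fit on GC content removed, cit1 and ppk9 kept one and eft201 and clg1 did not.

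Hexose transporters, which carry glucose and fructose across the plasma membrane, formed the list with the highest share. Of 6 ght genes with tiles, 3 held a member and all as own peaks, beside 128 of 5033 genes (2.54%) other than long non-coding RNA genes. ght2 had 6 tiles on chromosome II (3429300 to 3431099) with a Rif1_Myc mean of 1.22 ± 0.14, 0.15 ± 0.05 on Taz1_L593F, 0.54 ± 0.02 on Taz1_GFP and 0.37 ± 0.12 on Taz1_wt. ght8 had 5 tiles at 1.38 ± 0.13 on Rif1_Myc, 0.22 ± 0.17 on Taz1_L593F, 0.52 ± 0.08 on Taz1_GFP and 0.31 ± 0.00 on Taz1_wt. ght5 had 4 tiles at 1.27 ± 0.17, 0.17 ± 0.03, 0.55 ± 0.04 and 0.33 ± 0.21 on the same arrays. All 3 were thus above 0 on every array and close to the Taz1_GFP limit, and their WCE signals were 1.205 at ght2, 1.307 at ght8 and 1.588 at ght5. With loess the highest tile was 0.63 at ght2, 0.84 at ght8 and 0.58 at ght5. With a fit on WCE signal removed it was 0.71, 0.79 and 0.53, so none of the 3 was called under either. With a fit on GC content removed all 3 kept a tile at 2-fold, at 1.28, 1.28 and 1.14. The ght genes are close relatives, so probes may take up DNA of more than 1 of them.

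**Figure D4:**
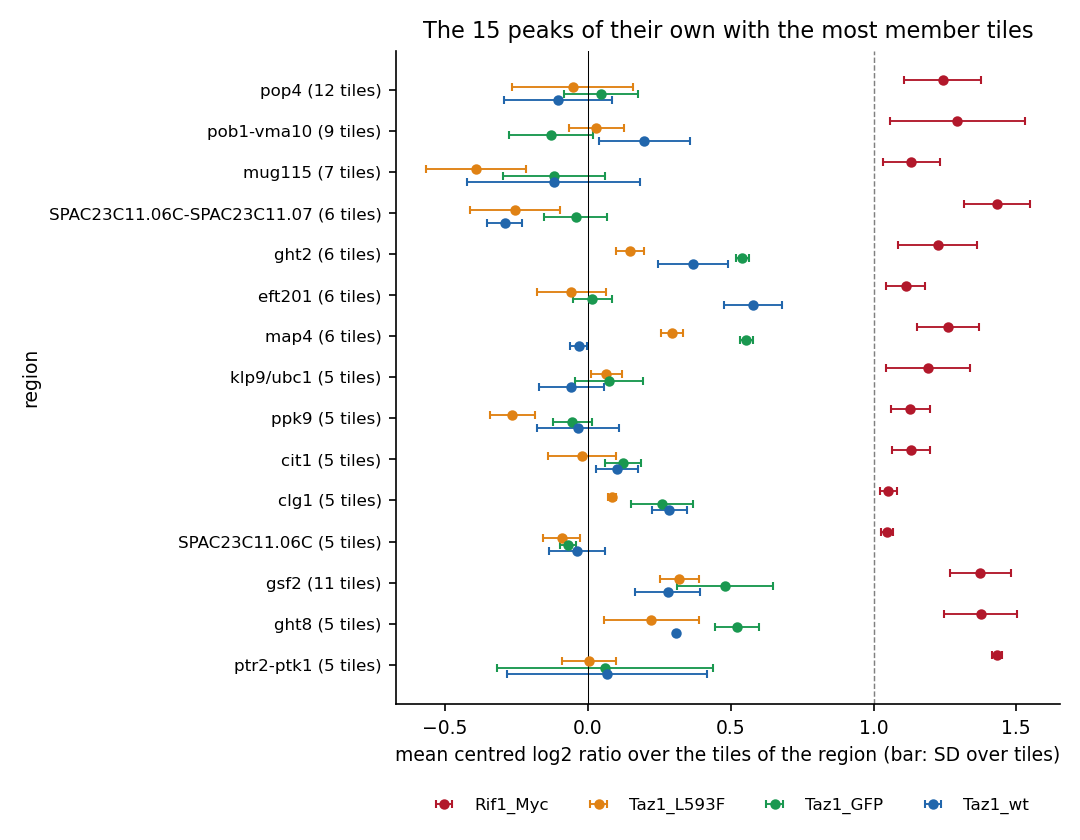
Mean centred log2 ratio on each of the 4 arrays over the tiles of the 15 own peaks with the most member tiles, with the SD over tiles as bars. Every Rif1_Myc mean lies between 1.05 and 1.43; the Taz1 means lie between -0.39 (mug115) and 0.58 (eft201), below the dashed line at 2-fold in all 15.

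Cell-surface adhesion proteins, a list chosen after the values were seen, held members in 5 of 14 genes, beside 2.54% of all 5033 genes. map4, a mating agglutinin, had 6 tiles at 1.26 ± 0.11 on Rif1_Myc, 0.29 ± 0.04 on Taz1_L593F, 0.55 ± 0.02 on Taz1_GFP and -0.03 ± 0.03 on Taz1_wt. gsf2, a flocculin, had 11 tiles at 1.37 ± 0.11 with the highest WCE signal of any own peak, 2.34, and only 4 of its tiles were members. mam3, another mating adhesin, had 6 tiles at 1.25 ± 0.05 and a WCE signal of 1.630, and pfl3 had 5 tiles at 1.07 ± 0.06 with a WCE signal of 1.633. The highest tile of these 4 lay between 0.39 and 0.64 with loess and between 0.48 and 0.67 with a fit on WCE signal removed. None of the 4 was therefore called under either, while the peak at SPAPB2C8.01 was, at 1.03 and 1.01. With a fit on GC content removed, map4, gsf2, mam3 and SPAPB2C8.01 kept a tile at 2-fold (1.34, 1.26, 1.22 and 1.17). The highest tile at pfl3 was then 0.87. wtf genes, a family tied to meiotic drive and also listed after the values were seen, held members in 5 of 24. wtf13, wtf19 and wtf23 are annotated as meiotic drive antidotes and wtf18 as an antidote-like suppressor of drive. wtf13 led with 3 tiles at 1.21 ± 0.03 on Rif1_Myc and 0.63 ± 0.10 on Taz1_wt. The WCE signals of the 5 wtf peaks lay between 1.05 and 1.94. None of the 5 wtf peaks kept a tile at 2-fold with loess, where the highest tile was between 0.23 and 0.42. None kept one with the WCE fit removed, between 0.18 and 0.43. With a fit on GC content removed all 5 kept one, between 1.02 and 1.27.

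The remaining lists are read against the 2.54% of all 5033 genes. Membrane transporters held members in 10 of 168 genes (5.95%), 6 of them in own peaks, including ght8, and 4 in flanks, including pet1, SPBC1652.02 and SPBC887.17. Sugar metabolism held 3 of 24: gnd1 of the pentose phosphate pathway as an own peak, and tkt1 and hxk2 as flanks. Translation factors held 1 of 9 (eft201), and ribosomal protein genes 3 of 138 (2.17%: rps1102, rpl1802 and rps901), near the share of all genes, although the median of gene means on Rif1_Myc was 0.43 over that list against 0.00 over all 5033. It was also raised on Taz1_wt, at 0.30 against -0.01, with -0.07 against -0.01 on Taz1_L593F and 0.06 against -0.01 on Taz1_GFP. Genes with meiotic names held 3 of 143 (2.10%: mug115, mug114 and mug153), also near the share of all genes, and long non-coding RNA genes 113 of 6374 (1.77%). No member lay in 29 tRNA, 13 chaperone, 10 histone or 31 cell wall genes, lists in which the share of all genes would give less than 1 gene each. These lists and their members were chosen with earlier results known, so the shares describe this array only.

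Taz1_wt values varied among own peaks of 3 or more tiles. The 5 highest means were 0.71 ± 0.09 between SPRRNA.53 and Tf2-2, 0.66 ± 0.18 over the retrotransposon Tf2-5, 0.63 at wtf13, 0.58 at eft201 and 0.41 ± 0.15 at SPAPB2C8.01. At the 2 Tf2 peaks 1 tile each was a member, since most tiles there carried the m suffix or passed the Taz1_GFP limit. The 5 lowest were -0.44 ± 0.09 at SPAPB18E9.04C, -0.29 between SPAC23C11.06C and SPAC23C11.07, -0.12 at mug115, -0.11 ± 0.13 at pst1, a subunit of histone deacetylase complexes, and -0.10 at pop4.

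The 10 strong runs with the most flank tiles were of different widths. SPAC23H4.05C, an uncharacterised gene on chromosome I, had 17 flank tiles of 22 around a summit of 2.54. The interval between ste7, a meiotic arrestin-like protein, and a 5S ribosomal RNA gene had 15 of 30 around 2.91. The interval between stb3 and SPBC1652.02 had 12 of 24 around 2.98, and that between pvg5 and SPAC22F8.03C had 10 of 21 around 3.11. pmo25, a gene for cell polarity, had 11 of 14 around 1.96, and pdb1, a subunit of pyruvate dehydrogenase, 8 of 9 around 1.72, so these runs passed 3-fold on few tiles and lay in coding exons with no GTGGGGG. The interval between rpl3602 and SPBC609.01 had 8 flank tiles, and rga10 to SPAC1565.03, puc1 to utp4 and mug153 had 7 each. At the 10 runs the mean WCE signal of the Taz1 arrays lay between -0.45 and 0.38.

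At 1 own peak the extract was not well above background. The labels give no ura4 genotype of these strains, so a difference between strains at this locus was not tested. At ura4, a uracil synthesis gene widely used as a selection marker, 3 of 4 tiles were not well above background on Rif1_Myc, with WCE signals down to -10.6, against 0.60 to 1.32 on Taz1_L593F and -0.15 to 0.95 on Taz1_wt. On Taz1_GFP they lay between -7.66 and -0.01. The member tile there had a smoothed Rif1_Myc value of 1.02 and counts as 1 of the 83 own peaks and 252 tiles. With spots not well above background left out, 82 own peaks and 251 tiles were left.

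Own peaks and strong runs were followed under other processing. The 252 own peak tiles fell to 111 with a loess fit within arrays, to 113 with a fit on GC content removed and to 84 with a fit on the WCE signal of the Taz1 arrays removed. Arrays scaled to a common spread gave 92 own peak tiles in 22 regions and 75 flank tiles, and no running median gave 187 own regions. The flank tiles were 147 with loess, 189 with the GC fit removed and 220 with the WCE fit removed, against 169. A tile at or above 2-fold was left within 18 own peaks after loess, 46 after the GC fit and 20 after the WCE fit. All 30 strong runs kept a tile at 2-fold under each of the 3, from summits that started far above it. At the 3-fold limit that defines them, 26 of 30 were left after loess and 30 after each of the other fits, and 13 of 30 with arrays scaled to a common spread. Only 16 of the 83 own peaks kept one under all 3, and 35 kept one under none.

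The 16 that kept one include pop4, pob1 to vma10, SPAC23C11.06C to SPAC23C11.07, mug115, ptr2 to ptk1, sur2, pyp3, fbp1 to wwm3, mix17 to SPAC6C3.03C, gwt1 to rps1102, yea4 to mas5 and ckb2 to ctu1. Also kept were SPAPB17E12.14C with rpl1802, SPAPB2C8.01, SPBP35G2.17 and fin1 to pas1, where Taz1_GFP averaged 0.88, above the limit of the rule. Both sur2 and ckb2 to ctu1 stood 1800 bp from a tile at or above 3-fold. The summits of the kept peaks lay outside coding exons in 13 of 16, their median WCE signal was -0.04, and 4 of the 16 held GTGGGGG. Of the 35 that kept none, 34 had their summit in a coding exon, the median WCE signal was 1.06, and 2 held the motif. After the WCE fit the summits stood at 1.64 at pop4, 1.69 between pob1 and vma10 and 1.67 between fbp1 and wwm3. These settings take out signal that goes with intensity, GC content and WCE brightness, so the sorting itself bears on the WCE signal, and with it the location, of kept and lost peaks. The WCE fit was chosen after the values were seen, and it uses the extract of the other 3 arrays.

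**Figure D5:**
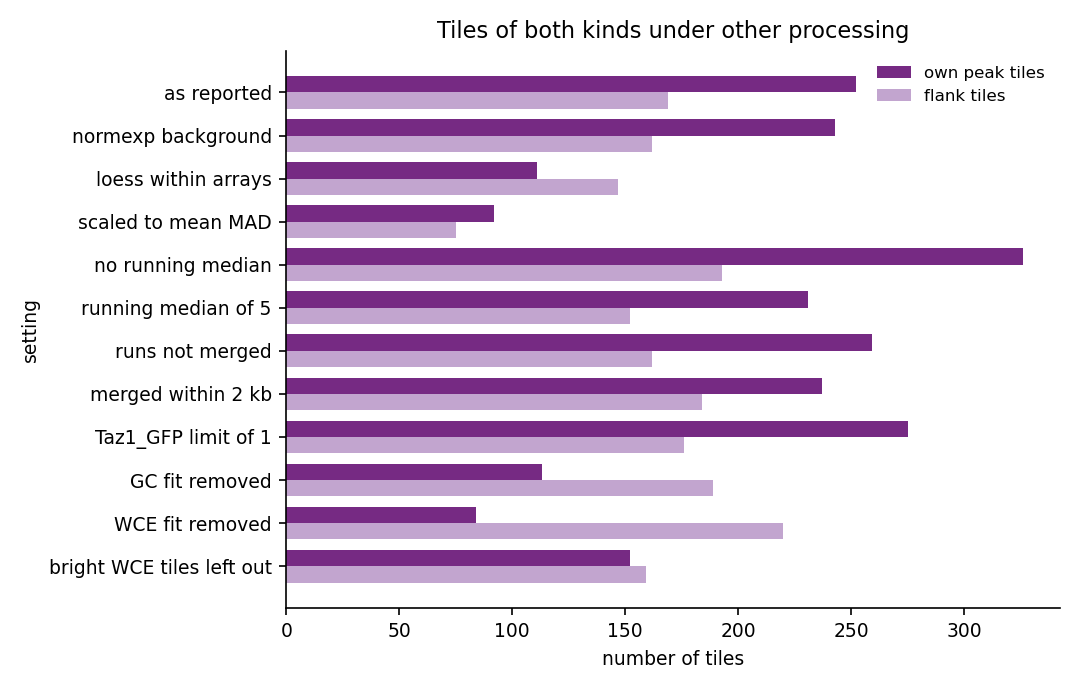
Number of own peak tiles (dark bars) and flank tiles (light bars) as reported and under other processing settings. The own peak tiles vary from 84 with the WCE fit removed to 326 with no running median, and the flank tiles from 75 with each array scaled to a common spread (scaled to mean MAD) to 220 with the WCE fit removed.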

How the data were processed

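The 4 arrays, 1 per group, held 41551 non-control probes each. Per the file headers, the authors' scans were read by Feature Extraction 11.5.1.1 from Agilent, which gave an intensity for each channel (its processed signal) and a log10 ratio of red over green. Log2 ratios in the deposited series matrix matched those of the intensities to within 1e-06 on every probe. Red is precipitated DNA and green whole-cell extract DNA per the labels, with no dye swap. The processed signals had already been brought to a like level between the channels. On Rif1_Myc the median raw signal was 16855 in green and 5232.5 in red, while the median log2 ratio before centring was -0.03. These log2 ratios were then centred on each array's median, with no loess or quantile step added here. Spots marked as outliers were left out (9 on Rif1_Myc, 2 on Taz1_L593F, 31 on Taz1_GFP, 74 on Taz1_wt). The robust SD of the ratio was 0.39, 0.19, 0.27 and 0.23 on the arrays in that order. Dim probes, in either channel, numbered 5, 0, 1 and 0.

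Array positions were tied to assembly ASM294v3 where WCE signal correlated best with GC content, in 6 segments of constant shift. The mean r was 0.452, against 0.0932 unshifted, and 118 of 119 windows of 100000 bp agreed to within 300 bp. Array positions are printed for regions, and assembly positions for sequences. Genes other than long non-coding RNA genes name the regions.

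The members, lists, motifs and alternatives were chosen with earlier results of these data known. Regions were named as the 15 own peaks with most members, the 10 highest summits, the 5 highest and 5 lowest Taz1_wt means, the 10 strong runs with most flanks, up to 4 genes a list and the regions with GTGGGGG; others are named where a result turns on them. Intervals are Clopper-Pearson at 95%. Peak calling and registration were tested on simulated data. Python 3.11.15 with numpy 2.4.6, pandas 2.3.3 and statsmodels 0.14.6, and limma 3.58.1 in R 4.3.3, were used. Alternatives were normexp, loess, scaling to the mean MAD, other running medians and merging distances, GC and WCE fits, other Taz1 limits, spot filters, the series matrix, unshifted positions and a narrower motif window.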

Additional observations from a re-analysis of the deposited data

How the results depend on the processing

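No paired analysis was possible because each group held 1 array and no test was made; no replicate could be left out for the same reason. The series matrix, outlier spots kept, dim spots left out and another merging distance moved no count by over 1.5 times. With loess within arrays there were 258 member tiles, 30 own peak regions, 111 own peak tiles and 30.0% of own summits in a coding exon. With arrays scaled to the mean MAD these were 167, 22, 92 and 27.3%, with 75 flank tiles and 0% of own peak tiles at or above 1.5-fold on Taz1_wt. With the GC fit removed there were 50 own regions, 113 own peak tiles and 42.0% in a coding exon. With the WCE fit removed, added after the data were seen, there were 25, 84 and 32.0%, and 0% on Taz1_wt. With tiles of a WCE signal at or above 1 left out, also added later, 152 own peak tiles were left. With no running median there were 187 own regions and 5.85% on Taz1_wt. Normexp gave 63.6% in a coding exon and 15.8% on Taz1_wt, and a running median of 5 gave 62.5% in a coding exon. Unshifted positions gave 55.4%. A Taz1_wt limit of 2-fold, or leaving out tiles at or above 1.5-fold there, gave 0%, in the second case by construction. In 300 bases in place of 900, GTGGGGG was in 3.97% of own peak windows and 0.560% of all windows, by construction of fewer letters. The cause of the other differences was not tested. The share of own summits with GTGGGGG lay between 11 of 187 (5.88%) with no running median and 13 of 22 (59.1%) with MAD scaling.

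Limits are 1 array a group, no dye swap, an unnamed build behind the positions, gene names that rest on the registration, and a running median that joins neighbouring tiles. A ratio shows nothing where the extract is not above background.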
